A study of Mus musculus with 6 samples.

Results

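The 33 genes described here encode the ephrin ligands and their Eph receptors, the Slit ligands and their Robo receptors, and the netrin receptors of the Unc5 family with Dcc. They were chosen by gene symbol among the 20239 named genes of the array table. The set holds 9 EphA receptors, 4 EphB receptors, 5 ephrin-A ligands, 3 ephrin-B ligands, 3 Slit ligands, 4 Robo receptors, and 5 genes of the Unc5 and Dcc group. The EphB receptor gene Ephb2 was not among the named genes, so its level is not known here. Gene expression had been measured in whole sciatic nerves of mice aged 25 days, on 1 Affymetrix whole-transcript array per mouse. The 3 mutant mice had the genotype DhhCre::Sip1 flox/flox, and the 3 control mice had the genotype Sip1 flox/flox without the Cre transgene. Both groups therefore carried the floxed alleles of Sip1, the gene now named Zeb2, which encodes a zinc finger transcription factor. DhhCre expresses Cre recombinase under regulatory sequences of Desert hedgehog, which is active in developing Schwann cells.

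Ephrins and Eph receptors signal between touching cells. Ephrin-A ligands are held in the membrane by a lipid anchor and ephrin-B ligands span it, and a ligand can itself pass a signal into the cell that bears it. Slits are secreted proteins that repel growing axons and migrating cells through Robo receptors, while netrins attract axons through Dcc and repel them through Unc5 receptors. These systems steer axons, neural crest cells and blood vessels during development.

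The nerve samples differed in ways that touch all results below. Zeb2 stood at 10.96, 10.66 and 11.01 in mutants 1 to 3, against 11.67, 11.57 and 12.02 in controls 1 to 3, all on the log2 scale. The difference was −0.88 (SE 0.15, limma adjusted p = 0.0137), with an adjusted p of 0.0522 without mutant 1. Where the probes lie relative to the floxed part is not known here. Of 7 measured markers of myelinating Schwann cells 6 fell, with the log2 of their summed linear values at 14.11 to 14.49 in mutants and 15.62 to 15.9 in controls. The same sum for 18 skeletal muscle markers ran from 11.88 to 17.12 in mutants and from 11.99 to 17.28 in controls, and in both groups it was highest in the mouse numbered 2. Levels of Xist and Y-linked genes placed 2 males and 1 female among the mutants, and 1 male and 2 females among the controls. In whole nerve, fewer cells of a type and less RNA per cell cannot be told apart.

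In mutant nerves 5 ephrin ligands and 2 Robo receptors were higher, and Slit2 and 3 Eph receptors were lower. Of the 33 genes, 7 rose (Efna2, Efna5, Efnb1, Efnb2, Efnb3, Robo1 and Robo2) and 4 fell (Slit2, Epha6, Ephb6 and Epha4), and 22 did not pass the test. All 3 ephrin-B ligands were among those that rose, and Slit2 had the largest change of the set. The 11 genes are 33.3% of the set, where 9.62% of all named genes passed. The 7 that rose are 21.2% of the set, where 5.74% of all genes rose, and the 4 that fell are 12.1%, where 3.89% of all genes fell. The test was limma on log2 values, mutant minus control, with Benjamini-Hochberg adjustment over all named genes and a threshold of 0.05. The median log2 fold change was 0.18 over the 33 genes and −0.02 over all genes. Values of the 2 genotypes did not overlap in 20 of the 33 genes (60.6%), where 28.1% of all genes showed no overlap. Without mutant 1 the number of genes that rose was 3, and without both mice numbered 2 the number that fell was 2.

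**Figure D1:**
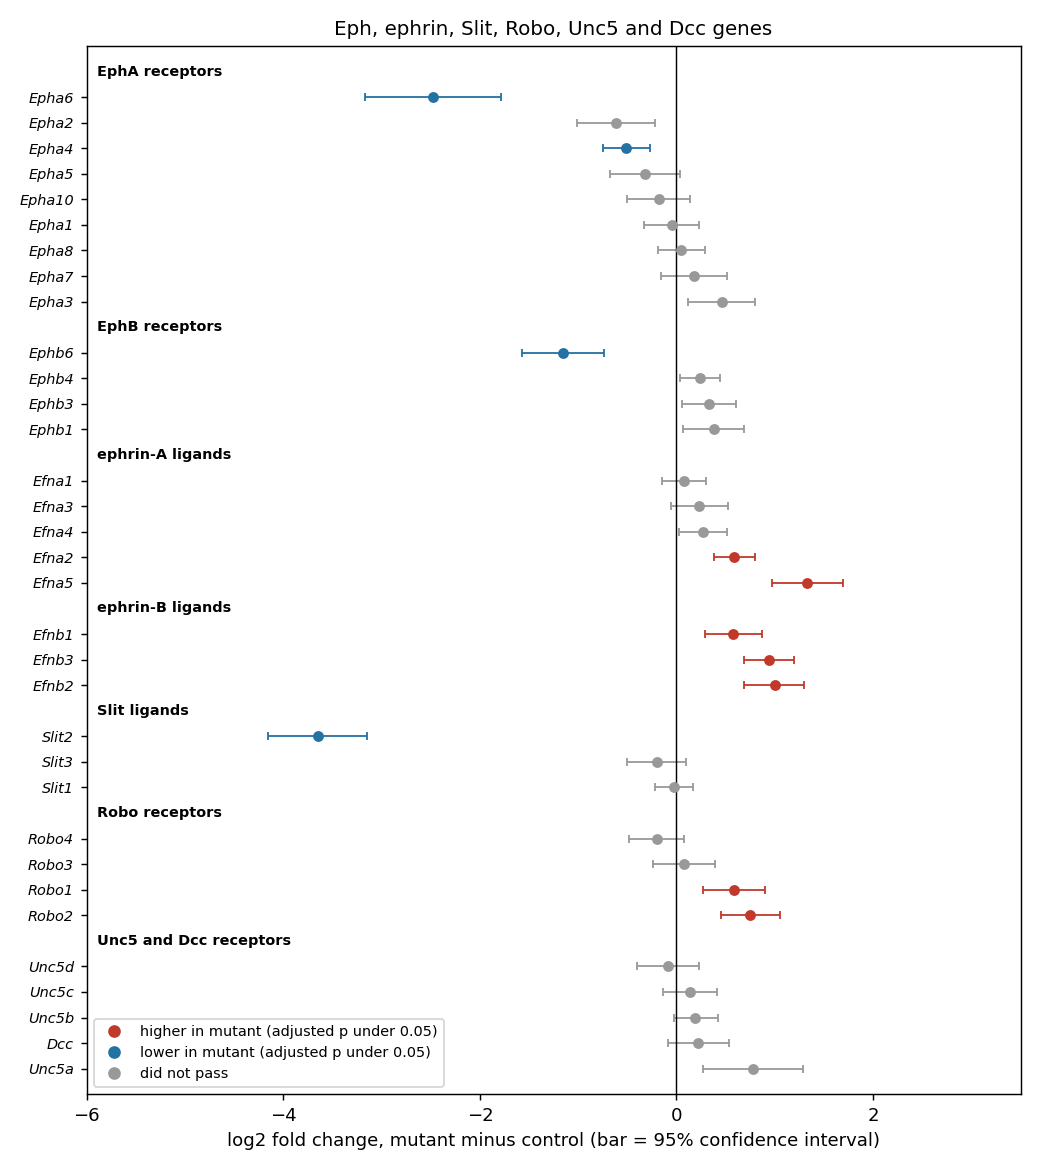
The log2 fold change of each of the 33 guidance genes, mutant minus control, is plotted as a point with its 95% confidence interval, by family, with red for genes that were higher, blue for genes that were lower and grey for genes that did not pass. All 3 ephrin-B ligands lie right of 0, and Slit2 (−3.65), Epha6 (−2.48) and Ephb6 (−1.15) lie farthest left.

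Promoter windows were read for the genes with the largest changes, because Zeb2 is known to bind the letters CACCT, often as a pair. The windows below run from 250 bases before to 50 bases after the annotated start of Slit2 and Epha6, which fell most, and of Efna5 and Efnb2, which rose most, from the RefSeq annotation of GRCm38.p6. Each is written along its gene's strand, and capitals mark CACCT or its reverse complement AGGTG. Slit2 lies at chr5:47982905-47983204 on the plus strand, and Epha6 at chr16:60605482-60605781, Efna5 at chr17:62881268-62881567 and Efnb2 at chr8:8661193-8661492 on the minus strand.
Slit2: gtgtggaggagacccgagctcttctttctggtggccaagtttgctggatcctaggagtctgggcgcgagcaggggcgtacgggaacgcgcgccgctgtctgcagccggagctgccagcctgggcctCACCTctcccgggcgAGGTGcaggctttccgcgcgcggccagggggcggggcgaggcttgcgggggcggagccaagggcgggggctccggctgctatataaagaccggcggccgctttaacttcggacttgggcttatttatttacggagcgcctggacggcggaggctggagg
Epha6: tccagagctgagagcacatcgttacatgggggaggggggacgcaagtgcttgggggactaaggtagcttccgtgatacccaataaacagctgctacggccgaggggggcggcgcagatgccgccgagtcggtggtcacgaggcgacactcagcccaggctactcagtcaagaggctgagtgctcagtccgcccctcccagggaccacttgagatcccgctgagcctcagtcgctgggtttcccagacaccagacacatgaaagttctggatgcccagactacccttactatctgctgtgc
Efna5: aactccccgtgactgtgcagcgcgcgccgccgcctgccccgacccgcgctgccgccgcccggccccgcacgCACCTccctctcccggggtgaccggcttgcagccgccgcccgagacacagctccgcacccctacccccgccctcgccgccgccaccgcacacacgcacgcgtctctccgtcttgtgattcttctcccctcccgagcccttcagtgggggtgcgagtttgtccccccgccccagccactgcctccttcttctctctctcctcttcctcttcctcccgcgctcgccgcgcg
Efnb2: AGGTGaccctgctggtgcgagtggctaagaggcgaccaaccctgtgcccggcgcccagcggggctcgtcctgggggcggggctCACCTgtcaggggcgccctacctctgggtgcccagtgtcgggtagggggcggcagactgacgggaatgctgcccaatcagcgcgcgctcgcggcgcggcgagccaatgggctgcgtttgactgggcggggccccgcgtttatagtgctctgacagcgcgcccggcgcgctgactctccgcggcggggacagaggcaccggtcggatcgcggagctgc
Slit2 and Efnb2 each held 2 matches, Efna5 held 1 and Epha6 held 0. Over the 34 windows found for 29 of the 33 genes, 15 (44.1%) held at least 1 match on either strand and 7 (20.6%) held 2 or more. Efnb3 was among the genes without a window. At least 1 match was held by 4 of 8 windows of genes that rose, 1 of 4 of genes that fell and 10 of 22 of the rest. Of all 32817 windows in the annotation 51.9% held at least 1 match and 18.2% held 2 or more. The base content differed, with a median GC of 64.5% in guidance windows and 52.7% in all windows, and the shares were not adjusted for it. The longer form CACCTG, which contains the shorter one, was found in 11.8% of the guidance windows and 20.2% of all windows. These are matches of letters, and no binding was measured.

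Ephrin-B ligands, which span the membrane, rose as a family. Efnb2, the ligand known for marking arteries, stood at 10.06, 9.64 and 10.05 in mutants 1 to 3, against 8.93, 8.97 and 8.86 in controls 1 to 3. The lowest mutant value lay above the highest control value, and mutant 2 was the lowest of its group. The log2 fold change of Efnb2 was 1.00 (SE 0.13, 1.99-fold higher, limma adjusted p = 0.00476). Efnb3, best known from the midline of the central nervous system, had 9.04, 9.26 and 9.25 in mutants and 8.10, 8.27 and 8.36 in controls. All 3 mutants were again above all controls, and mutant 2 did not stand below the other mutants. Its change was 0.94 (SE 0.11, adjusted p = 0.00303).

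Efnb1, an X-linked ephrin gene, had 10.25, 9.87 and 10.26 in mutants, against 9.52, 9.52 and 9.59 in controls. The controls were tight, with an SD of 0.04, while mutant 2 stood below mutants 1 and 3. The change was 0.58 (SE 0.12, limma adjusted p = 0.0303). This call was lost with mutant 1 left out (adjusted p = 0.132), and likewise for mutant 3 (0.129), control 1 (0.0769), control 2 (0.0895) and control 3 (0.0658), and with sex as a covariate (0.0621) or median centring (0.0507). Efnb2 and Efnb3 passed under each of the 19 alternatives.

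Ephrin-A ligands were higher in 2 of 5 members. Efna5, which repels axons that carry EphA receptors, had 9.92, 9.46 and 9.80 in mutants, against 8.60, 8.39 and 8.20 in controls. Every mutant was above every control, and the log2 fold change of 1.33 was the largest rise of the 33 genes (SE 0.15, 2.51-fold higher, limma adjusted p = 0.00312). Efna2, another lipid-anchored ligand, had 9.12, 8.96 and 9.17 in mutants and 8.53, 8.43 and 8.52 in controls. These groups were each tight and apart, with a change of 0.59 (SE 0.09, adjusted p = 0.00854), but the adjusted p was 0.0535 without mutant 1.

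The ephrin-A genes Efna1, Efna3 and Efna4 lie side by side on chromosome 3 with no protein-coding gene between them, and none of the 3 passed. Efna4 came closest, at 8.12, 8.19 and 8.34 in mutants and 8.09, 7.86 and 7.90 in controls. Mutant values lay above control values by a small margin, and the change was 0.27 (95% confidence interval 0.03 to 0.51, limma adjusted p = 0.174). Efna3 differed by 0.23 (adjusted p = 0.331) and Efna1 by 0.08 (adjusted p = 0.692), both with overlapping groups. The fold changes of all 5 ephrin-A genes were positive, except that Efna1 turned to −0.01 with array weights.

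Beside the rise of the ephrins, the marker lists of perineurial cells and fibroblasts also stood higher. Of 10 perineurial markers 7 rose (70%, where 5.74% of all named genes rose). The log2 of their summed values was 14.78 to 14.94 in mutants and 13.86 to 14.26 in controls. Of 11 fibroblast markers 4 rose (36.4%), with a median log2 fold change of 0.26 (15.91 to 16.11 in mutants, 15.67 to 15.81 in controls). Of 11 macrophage markers 0 passed, but all 11 fold changes were positive, with a median of 0.33 and overlapping sums (12.85 to 13.18 in mutants, 12.53 to 12.91 in controls). Of 9 markers of immature or nonmyelinating Schwann cells 4 rose and 3 fell, and the sums overlapped (13.81 to 14.35 in mutants, 13.65 to 14.08 in controls). The pooled sum hides large changes in both directions. Gfap (4.55), Sox2 (1.62), Ncam1 (1.44) and Jun (1.23) rose, while Cadm3 (−2.70), L1cam (−1.96) and Scn7a (−1.36) fell. The part of these cell types in the ephrin result was not tested. Of 11 endothelial markers, set beside Efnb2 because arteries express it, 0 rose and 1, Cldn5, fell (13.65 to 13.68 in mutants, 13.48 to 13.91 in controls). The vessel wall markers of pericytes and smooth muscle gave 0 calls among 10 (13.996 to 14.18 in mutants, 13.93 to 14.04 in controls).

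Among the 9 EphA receptors, 2 fell and none rose. Epha6, a receptor for ephrin-A ligands, had 5.53, 5.69 and 5.43 in mutants, against 7.49, 7.87 and 8.72 in controls. The mutant values were tight and the control values spread, with control 3 the highest. The log2 fold change was −2.48 (SE 0.29, 95% confidence interval −3.17 to −1.79, 5.58-fold lower, limma adjusted p = 0.00332). All 3 mutant values lay below the lower quartile of their array, which was 6.59 to 6.74, so the fold may be compressed by background. Without control 3 the change was −2.13, and it passed in each of the 18 alternatives that tested it.

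Epha4, which binds ephrins of both classes, had 8.40, 8.35 and 8.51 in mutants and 8.85, 8.84 and 9.09 in controls. The groups did not overlap, and the change was −0.51 (SE 0.10, limma adjusted p = 0.0244). The adjusted p was 0.111 with mutant 1 left out, 0.0618 with mutant 2, 0.07 with mutant 3 and 0.0505 with control 2 left out, so the call was lost in each, and with control 3 left out it lay just under the threshold. The call was also lost without both mice numbered 2 (0.094) and with sex as a covariate (0.0537).

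Epha2, an epithelial receptor in many tissues, had 8.22, 8.20 and 8.13 in mutants, against 8.62, 8.59 and 9.19 in controls. Control 3 stood above the other controls, no mutant reached a control value, and the difference of −0.62 did not pass (SE 0.17, limma adjusted p = 0.0675). It passed without control 3 at −0.42 (adjusted p = 0.0406). It also passed with sex (0.0307) or the adipocyte score (0.0143) as a covariate, with array weights (0.0271) and without the lowest 50% of genes (0.0483). Epha3 pointed the other way at 0.46 (adjusted p = 0.109), with groups that did not overlap. Epha5 stood at −0.32 (adjusted p = 0.278), Epha10 at −0.18, Epha7 at 0.18, Epha1 at −0.05 and Epha8 at 0.05, and the last 4 had overlapping groups.

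Of the 4 EphB receptors in the set, Ephb6 fell and the other 3 did not pass. Ephb6, a member whose kinase domain is inactive, had 8.64, 8.28 and 8.58 in mutants, against 9.40, 9.57 and 9.998 in controls. The gap between the groups was wider than the spread within either, and the log2 fold change was −1.15 (SE 0.17, 2.22-fold lower, limma adjusted p = 0.00854). It failed in 1 of 19 alternatives, without both mice numbered 2 (−1.09, adjusted p = 0.0544).

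The 3 EphB receptors that did not pass all had higher values in every mutant than in any control, as did 16.3% of all named genes. Ephb3 had 9.20, 8.96 and 9.30 in mutants and 8.72, 8.80 and 8.95 in controls, a difference of 0.33 (limma adjusted p = 0.142). Ephb4, the receptor known for marking veins, had 10.02, 9.91 and 10.04 in mutants and 9.83, 9.74 and 9.67 in controls, a difference of 0.24 (95% confidence interval 0.04 to 0.44, adjusted p = 0.149). Ephb1 differed by 0.38 (adjusted p = 0.143). With array weights all 3 passed, with adjusted p of 0.0269, 0.0388 and 0.0153 for Ephb3, Ephb4 and Ephb1.

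**Figure D2:**
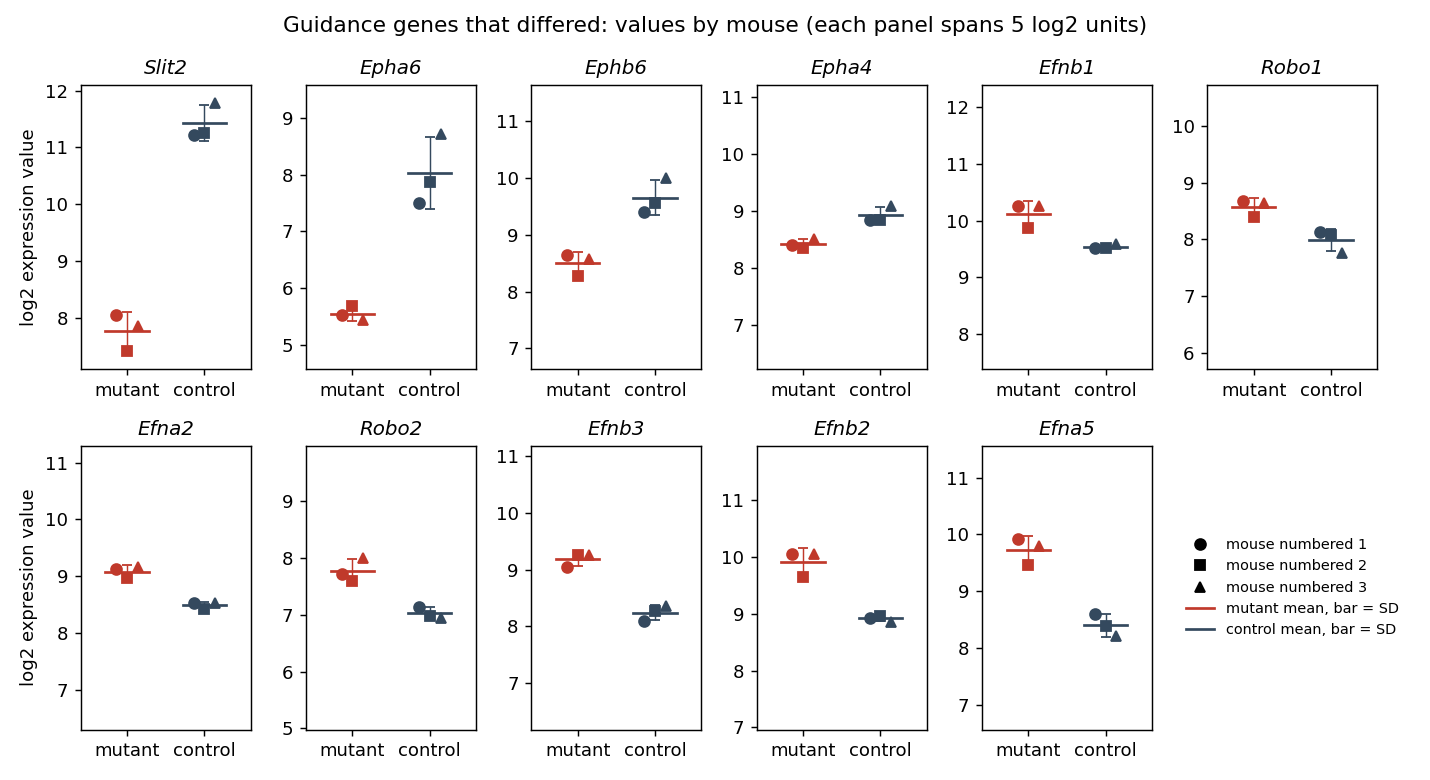
Log2 expression values of the 11 guidance genes that passed, one panel per gene ordered from the largest fall to the largest rise, with mutants left and controls right, a symbol per mouse number, a line for the group mean and a bar for the SD. Each panel spans 5 log2 units, and in every panel the groups are apart, by the widest margin in Slit2, at 7.41 to 8.05 in mutants and 11.22 to 11.79 in controls.

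Slit2 fell more than any other gene of the set, while the other Slits did not pass. It encodes a secreted ligand of Robo1 and Robo2. Its values were 8.05, 7.41 and 7.86 in mutants, against 11.22, 11.26 and 11.79 in controls. Each mutant value lay below the median of its array, which was 8.09, 8.11 and 8.11 for mutants 1 to 3. Every control was far above every mutant. The log2 fold change was −3.65 (SE 0.21, 95% confidence interval −4.16 to −3.15, 12.6-fold lower, limma adjusted p = 0.000325). Across the 19 alternatives it ran from −3.79 to −3.42.

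Slit3, a ligand also made outside the nervous system, had 10.30, 10.19 and 10.05 in mutants and 10.61, 10.26 and 10.27 in controls. The groups overlapped, with a difference of −0.20 (limma adjusted p = 0.421, 95% confidence interval −0.50 to 0.10). Slit1, mainly a ligand of the central nervous system, stood at −0.03 (95% confidence interval −0.22 to 0.17), with 2 arrays below their lower quartile. Its sign turned in 5 of the 18 alternatives that tested it, among them quantile normalization of the deposited values (0.03). Markers of myelinating Schwann cells fell together with Slit2, Epha6, Ephb6 and Epha4, as given above, and their part in these falls was not tested. Among them Mag, an adhesion protein of the inner myelin membrane, stood at −4.89 (adjusted p = 6.56e-05). In the neuron and axon list 1 of 10 markers fell and none rose (11.06 to 11.38 in mutants, 11.33 to 11.67 in controls).

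Robo1 and Robo2, the receptors that bind Slit2, rose. Robo2 had 7.72, 7.59 and 8.004 in mutants, against 7.14, 6.98 and 6.95 in controls. Every mutant lay above every control, with mutant 3 the highest, and the log2 fold change was 0.75 (SE 0.13, 1.68-fold higher, limma adjusted p = 0.0129). Its adjusted p was 0.0545 without mutant 1. Robo1 had 8.68, 8.40 and 8.64 in mutants and 8.12, 8.08 and 7.76 in controls, again without overlap. Its change was 0.59 (SE 0.13, adjusted p = 0.0372). The call was lost with mutant 1 left out (adjusted p = 0.155), and likewise for mutant 3 (0.151), control 2 (0.0724) and control 3 (0.0695), and without both mice numbered 2 (0.0642). The 2 genes neighbour each other on chromosome 16 with no protein-coding gene between them.

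Robo4, a receptor of endothelial cells, had 9.09, 9.03 and 8.94 in mutants and 9.43, 9.20 and 9.04 in controls. The groups overlapped, with a difference of −0.20 (limma adjusted p = 0.385, 95% confidence interval −0.48 to 0.08). Robo3, known from commissural axons of the hindbrain and spinal cord, stood at 0.08 (adjusted p = 0.791), with 5 of 6 arrays below their lower quartile. Robo4 and Robo3 are likewise neighbours, on chromosome 9.

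None of the 5 netrin receptor genes passed. Unc5a had 9.29, 9.06 and 9.03 in mutants, against 8.44, 8.73 and 7.87 in controls. No control reached a mutant value, but the controls spread widely, with control 3 the lowest. Mutants exceeded controls by 0.78, with a 95% confidence interval of 0.27 to 1.29 (SE 0.21, limma adjusted p = 0.0713). A fit blocked on replicate number gave an adjusted p of 0.0375, and without control 2 it was 0.0381 at a difference of 0.97. Unc5b, a receptor also of endothelial cells, stood at 0.19 (adjusted p = 0.298) with groups apart, Unc5c at 0.14 and Unc5d at −0.09, both overlapping. Dcc, the attractive netrin receptor, stood at 0.22 (95% confidence interval −0.09 to 0.53, adjusted p = 0.396), with 5 of 6 arrays below their lower quartile.

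**Figure D3:**
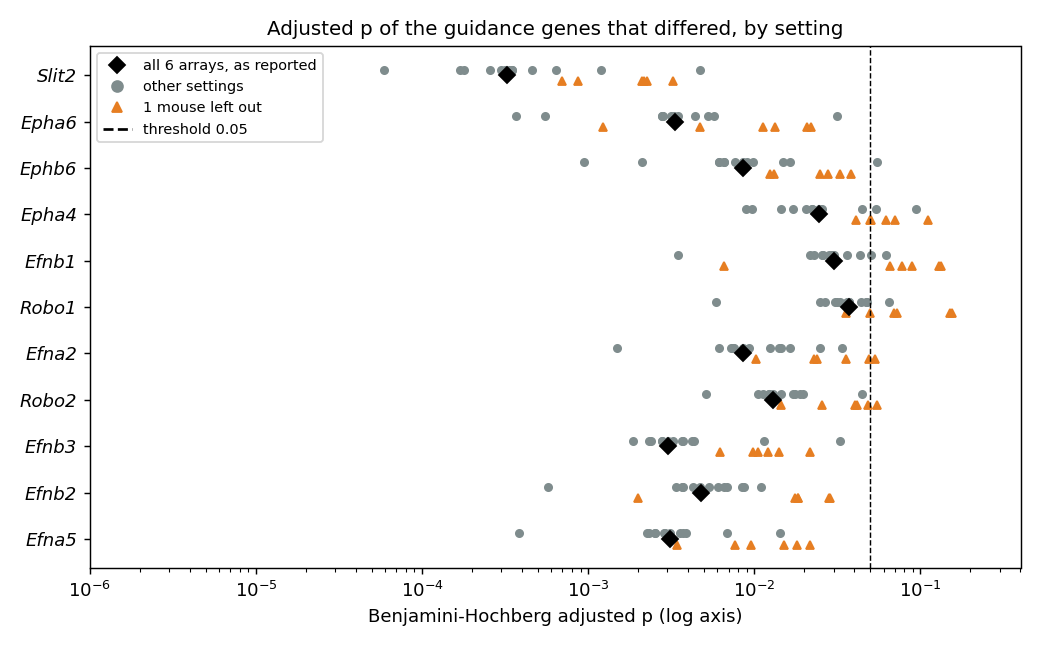
Benjamini-Hochberg adjusted p (log axis) of the 11 genes that passed, with a black diamond for the value from all 6 arrays, grey circles for other processing settings and orange triangles for fits with 1 mouse left out, and a dashed line at 0.05. Slit2, Epha6, Efna5, Efnb2 and Efnb3 stay left of the line in each fit shown, while Efnb1, Robo1, Epha4, Robo2 and Efna2 cross it when single mice are left out.

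Signalling partners of these receptors were counted from 3 lists. Of 58 listed genes 56 were measured, 12 rose, 2 fell and 42 did not pass, and the median log2 fold change was 0.08. The genes that rose are 21.4% of those measured, where 5.74% of all named genes rose, and the genes that fell are 3.57%, close to the 3.89% of all genes that fell. Without mutant 1 the number that rose was 6, and it was also 6 without mutant 3. With array weights it was 18. With the adipocyte score as a covariate 5 fell.

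Among 24 partners of Eph receptors and ephrins, 4 rose (16.7%) and 2 fell (8.33%), with a median of −0.02. Chn2, a GTPase-activating protein for Rac, had 8.06, 8.04 and 8.16 in mutants, against 10.41, 10.43 and 11.04 in controls. Its log2 fold change was −2.54, and mutants lay far below controls (limma adjusted p = 0.000481). Its relative Chn1, which acts behind EphA4 in motor circuits, stood at −0.06 (adjusted p = 0.861). Adam10, a membrane protease that cuts ephrins and Eph receptors among other substrates, had 10.86, 10.52 and 10.95 in mutants and 11.90, 11.88 and 12.45 in controls, a change of −1.30 (adjusted p = 0.00735).

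The Rac activator Tiam1, known to bind Eph receptors and ephrin-B ligands, rose by 0.78 (limma adjusted p = 0.0455). Vav2, an exchange factor needed for Eph-driven repulsion, rose by 0.60 (adjusted p = 0.0294). Without mutant 1 the adjusted p was 0.162 for Tiam1 and 0.128 for Vav2, without mutant 3 it was 0.175 and 0.126, without control 1 it was 0.0799 and 0.0741, without control 2 it was 0.118 and 0.0889, and for Tiam1 without control 3 it was 0.116. Both calls were also lost with sex as a covariate (Tiam1 0.0607, Vav2 0.0744) and median centring (Tiam1 0.0608, Vav2 0.0541), that of Tiam1 with the adipocyte covariate (0.0657) and that of Vav2 without both mice numbered 2 (0.0693). The adaptors Nck1 (0.59) and Nck2 (0.44) were the other members that rose, and they are named here after their values were seen. Nck1 failed without mutant 1 (0.068) or mutant 3 (0.0671). Nck2 failed with any of 4 mice left out, namely mutant 1 (0.15), mutant 3 (0.13), control 1 (0.0788) and control 3 (0.0838), when blocked on replicate number (0.0667), and with sex (0.0684) or the muscle score (0.0567) as a covariate.

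Of 13 measured partners of Slits and Robos, 1 rose and none fell (median 0.07). This 7.69% is near the 5.74% of all genes that rose. Enah, an actin regulator of the growth cone, had 9.37, 9.63 and 9.58 in mutants and 8.40, 8.74 and 8.42 in controls. Mutants lay above controls by a margin wider than either group's spread, with a log2 fold change of 1.01 (limma adjusted p = 0.00422). The GTPase-activating proteins that bind Robo went apart in sign without passing, with Srgap1 at −0.64 (adjusted p = 0.112), Srgap2 at −0.47 (0.128) and Srgap3 at 0.40 (0.126). Srgap1 passed when blocked on replicate number (limma adjusted p = 0.0347) and with the adipocyte score as a covariate (0.0395). Srgap2 also passed with that covariate (0.0121), and Srgap3 passed with array weights (0.0188).

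Among 19 measured netrins, Unc5 ligands and their partners, 7 rose (36.8%) and none fell (median 0.22). Trim9, a ubiquitin ligase that binds Dcc, had 9.08, 8.62 and 9.02 in mutants, against 7.23, 6.98 and 6.91 in controls, a change of 1.87 (limma adjusted p = 0.000894). Flrt2, a membrane protein that binds Unc5 receptors, had 11.03, 10.98 and 11.14 in mutants and 9.73, 9.68 and 9.66 in controls, a change of 1.36 (adjusted p = 0.00034). Both genes had groups far apart. Flrt3, a relative of Flrt2, rose by 1.02 (adjusted p = 0.00766), and Flrt1 stood at 0.08 (adjusted p = 0.635).

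Ntng1, a lipid-anchored relative of the netrins that does not bind Dcc, rose by 1.10 (limma adjusted p = 0.0142). It failed without mutant 1 (adjusted p = 0.0604), without mutant 3 (0.0668) and without both mice numbered 2 (0.0869). Ntn1, the netrin that Dcc and Unc5 receptors bind, is named here after its values were seen. It had 10.66, 10.49 and 10.84 in mutants, against 9.86, 9.83 and 9.94 in controls, with a change of 0.79 (adjusted p = 0.00593). All 3 mutants lay above all 3 controls. Ntn4, which is also on the perineurial list, rose by 0.63, and Rgma, a ligand of the netrin receptor neogenin, by 0.50. Rgma failed with any of 4 mice left out, namely mutant 1 (adjusted p = 0.0902), mutant 3 (0.0969), control 1 (0.0529) and control 3 (0.0556). The perineurial and fibroblast markers that were higher in the same nerves are given above, and their part in this list was not tested.

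**Figure D4:**
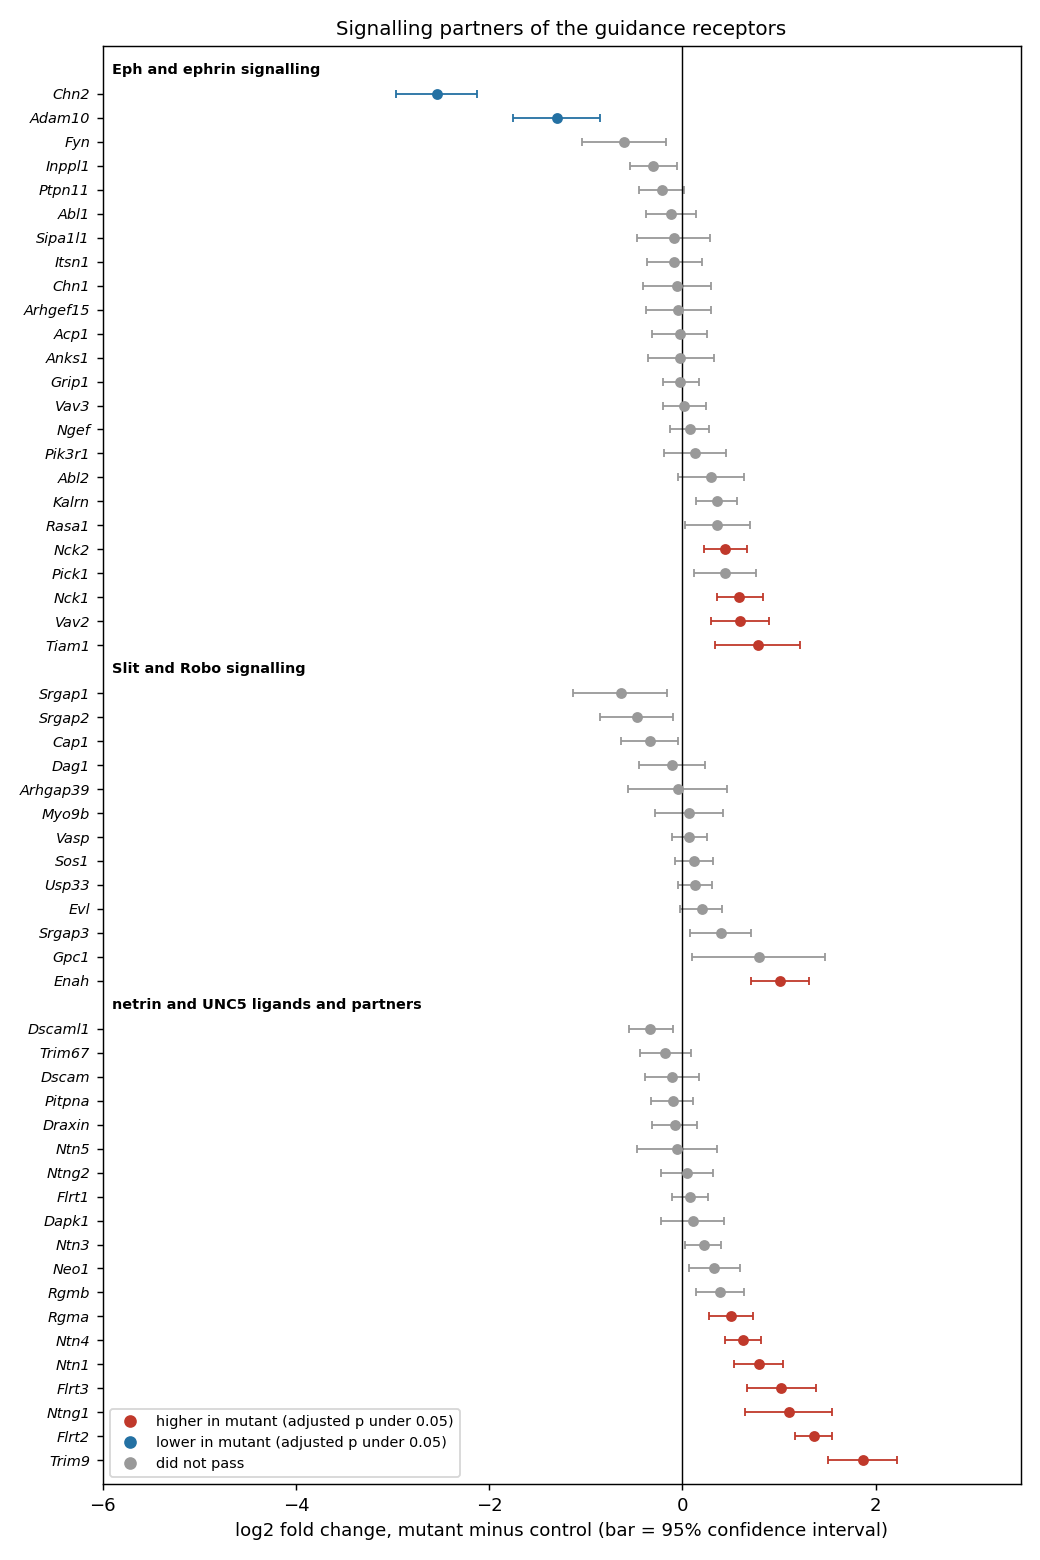
The log2 fold change of the 56 measured signalling partners, mutant minus control, is plotted with its 95% confidence interval, by list, with the same colours as for the guidance genes. Chn2 (−2.54) and Adam10 (−1.30) are the 2 that fell, and the 7 netrin and Unc5 partners that rose run from Rgma (0.50) to Trim9 (1.87).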

How the data were processed

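Total RNA of sciatic nerves had been extracted with Trizol, amplified, biotin-labelled and read on 1-colour Affymetrix arrays, per the labels' protocols. The authors deposited log2 values for 21225 probe sets, 1 value per mouse. The log base was read from the range of 3.55 to 14.52. The submitters' processing notes name limma, and how background and arrays were adjusted is not given here by any source. Arrays have no read depth, no detection calls were used, and the number of arrays limits precision.

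The platform annotation named 20239 probe sets by 1 symbol, 0 by several, and 986 are unnamed here. The linear models came from limma 3.58.1 (R 4.3.3, lmFit and eBayes, two-sided) on all named genes, without a block. SD and SE are of log2 values. Promoters came from RefSeq. Figures used matplotlib 3.10.9. The guidance genes, lists, alternatives and naming rule were chosen with earlier results of these data known. Named were all guidance genes, and in each partner list up to 4 genes that passed with the largest change. Nck1, Nck2, Ntn1, Ntn4, Rgma, Chn1, Flrt1, Srgap1, Srgap2 and Srgap3 were named after their values were seen.

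Some of the 19 alternatives changed the filter, dropping the dimmest 25% or 50% of genes. Some changed the scaling (quantile normalization of the deposited values, median centring, or 16 added to linear values) or the model (array weights, replicate block, trended robust prior). Others tested all probe sets, took sex or the mean of the muscle or adipocyte markers as a covariate, dropped both mice numbered 2, or left out each mouse in turn.

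Samples with the same replicate number deviated together (r = 0.36, 0.574 and 0.295 over all genes, for numbers 1, 2 and 3). Mutant 1 and control 3 also correlated, at 0.303, which weakens a pairing by number. The numbers are not stated to mark a shared litter or day. The reported fit therefore had no block, and the block is an alternative. The labels call the samples biological replicates. On simulated data with 20239 genes, the same fit recovered 21.6% of genes with a log2 change of 0.5, 72.8% at 1 and 94% at 2. The simulation changed far fewer genes than the 1948 that passed here, and that number affects the adjusted p. It also drew the noise independently for each array. These shares therefore need not hold for the real comparison.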

Additional observations from a re-analysis of the deposited data

How the results depend on the processing

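The 11 genes that passed kept their direction under the 19 alternatives that tested them. Of them 5 (Slit2, Epha6, Efna5, Efnb2 and Efnb3) passed in each, Epha6 being tested in 18 because it was removed with the lowest 50% of genes. Robo2 was removed there too. Of the 22 genes that did not pass, 6 passed under at least 1 alternative (Epha2, Epha3, Ephb1, Ephb3, Ephb4 and Unc5a), and 7 turned sign in at least 1 without passing.

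The count of guidance genes that rose was 12 with array weights and ran from 3 to 7 with 1 mouse left out, and the count that fell ran from 3 to 5 there and was 2 without both mice numbered 2. Their median log2 fold change was 0.16 without the lowest 25% of genes and 0.29 without the lowest 50%. It was 0.15 with quantile normalization, 0.12 with median centring, 0.11 without both mice numbered 2, and 0.13 to 0.17 with 1 mouse left out. The partner genes that rose numbered 18 with array weights, 9 with sex as a covariate and 6 to 14 with 1 mouse left out, and those that fell numbered 5 with the adipocyte covariate and 2 with any 1 mouse left out. With the replicate number as a block 8 guidance genes rose, the added one being Unc5a, and 4 fell. The block gave 11 partner genes that rose and 3 that fell, with Nck2 lost and Srgap1 gained, and changed no other call. Where groups of 2 and 3 were compared, fewer samples entered the fit. The cause of the lost calls was not tested for any setting. Low values limit the reading of Epha6, Epha3, Robo3, Dcc, Efna3 and Slit1, each below the lower quartile on at least 1 array.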
